A study of Schistosoma mansoni with 6 samples.

Results

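A pair of genes named histone H2A (Smp_086860 and Smp_002930) and the gene named slbp-P1-related (Smp_137390) were followed in the blood fluke Schistosoma mansoni after gamma irradiation. These 3 rows of 13305 in the deposited table were chosen by identifier because they fell at 200 Gy, so their change between the groups is a description here and carries no test. Adult male worms of the NMRI strain came from mice at day 43 of infection, and all of them were kept in Basch Media 169 for 48 hours. The irradiated group received 200 Gy from a Co60 source and the control group a mock exposure, with 3 libraries (A, B and C) in each. Every library was made from a pool of 14 to 18 worms without head and testes. Separate infections as the source of the pools are not stated in the labels, so any p-value measures the spread between pools, which may be technical.

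Histones are the proteins around which nuclear DNA is wound, and H2A is part of the core of each nucleosome. In animals most histone genes are read when a cell copies its DNA, and their mRNAs end in a stem-loop in place of a poly(A) tail. Stem-loop binding protein (SLBP) holds that stem-loop, and in vertebrates and flies it serves the processing and translation of histone mRNA. Variant histones are made outside DNA copying too, usually from polyadenylated mRNAs. In adult schistosomes the dividing cells of somatic tissue are stem cells called neoblasts, which radiation is known to deplete in flatworms. The roles of the 3 genes in this worm are taken from the product names in the table. Only 1 row in the table had an slbp name.

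Libraries held 17577059 to 29641087 exon reads, and 3 reads, the most that a count of 0 allows, stood for 0.101 to 0.171 CPM (reads scaled to the size of the library). Of 8885 genes with enough reads, the edgeR quasi-likelihood test called 221 lower and 55 higher in irradiated worms, at a Benjamini-Hochberg adjusted p below 0.05. Falls numbered 359 when control A was left out, 723 when irradiated B was, and 119 to 127 when any one of the other libraries was. Rises numbered 125 and 129 without control A and irradiated B, and 16 to 33 without any one of the others. A list drawn by testis or meiosis names had a summed level near that of controls. Such names do not mark the testes alone, which dissection should have removed, so the sum does not show how much testis was left. Of 15 rows in that list 13 were tested, none was called in either direction by edgeR or DESeq2, 1 had an unadjusted p under 0.05, and their summed level was 367 to 386 CPM in controls and 373 to 380 after irradiation. The most abundant of them, mre11 (Smp_068110), works in somatic cells too, while the germ cell gene named boule-related (Smp_144860) had 11 reads in all 6 libraries. Log2 fold changes in the list ran from -0.67 to 0.14, with a median of 0.05. The lowest, that of the meiotic gene named spo11 (Smp_131670), had an SE of 0.50, with 58 reads in controls and 40 after irradiation. Of 67 tested tegument, muscle and gut genes, which mark the labelled somatic tissue, edgeR called 2 lower and 2 higher. The lower were a paramyosin and a titin, the higher Sm29 and a tetraspanin. DESeq2 called 4 lower and 4 higher. Over all tested genes edgeR called 2.49% lower and 0.619% higher, and DESeq2 5.51% and 1.43%. An unadjusted p under 0.05 was found for 19 of the 67. The share of all tested genes with such a p was not counted, so nothing is read from these counts, here or in other lists. The summed level of the 67, to which abundant genes add most, was 58314 to 60884 CPM in controls and 57302 to 59168 after irradiation. The part of tissue composition in the results below was not tested.

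The H2A gene Smp_086860 was nearly lost after irradiation. It had 295, 223 and 173 exon reads in the controls (A, B and C in this order throughout), which is 11.0, 9.75 and 9.88 CPM. In the irradiated libraries it had 5, 3 and 3 reads, or 0.169, 0.139 and 0.125 CPM. The groups lay far apart, and each irradiated library was within a few reads of the limit that a count of 0 allows. Exact Poisson intervals for 5 and 3 reads run from 1.62 to 11.7 and from 0.619 to 8.77 reads, for counting error only. The log2 fold change was -6.08 (SE 0.19), the lowest fitted value among the 8885 tested genes. That order is imprecise for genes with so few reads after irradiation. The SE is derived from the test statistic and understates the error here, since the counting interval below is wider than it implies. Pooled over libraries, 691 reads in controls stood against 11 after irradiation, a level 70.2-fold lower with an exact 95% counting interval of 39.0 to 141. The level that remained was thus 1.42% of the control level, with an interval of 0.708% to 2.56%. The authors' deposited table gives a fold change of -69.5 on mean RPKM (reads scaled by exon length and by library).

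The second H2A gene, Smp_002930, was already scarce in controls and fell by much less. It had 28, 33 and 22 exon reads in controls, or 1.04, 1.44 and 1.26 CPM, and 17, 10 and 13 reads after irradiation, or 0.575, 0.463 and 0.543 CPM. The lowest control stood above the highest irradiated library. The log2 fold change was -1.21 (SE 0.25), and 43.1% of the control level remained, with a counting interval of 28.8% to 63.6%. Its fall was number 93 in size among the tested genes. The authors' deposited table gives a fold change of -2.32 for it.

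The gene slbp-P1-related, Smp_137390, fell by more than Smp_002930 and by less than Smp_086860. It had 105, 89 and 66 exon reads in controls, or 3.92, 3.89 and 3.77 CPM, and 14, 7 and 13 reads after irradiation, or 0.473, 0.324 and 0.543 CPM. The 3 controls lay close together and all far above the irradiated libraries. The log2 fold change was -3.08 (SE 0.20), number 28 in size, and 11.7% of the control level remained, with a counting interval of 7.93% to 16.8%. The authors' deposited table gives a fold change of -8.47. All 3 genes were called lower where 2.49% of tested genes were, and all 3 had every irradiated library below every control where 13.3% of tested genes did, but the genes were picked for this fall, so nothing is read from these counts. The call of Smp_002930 was not made by DESeq2, nor with any one library left out other than control A and irradiated B. In bulk tissue, fewer cells that hold a transcript and less of it per cell cannot be told apart.

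**Figure D1:**
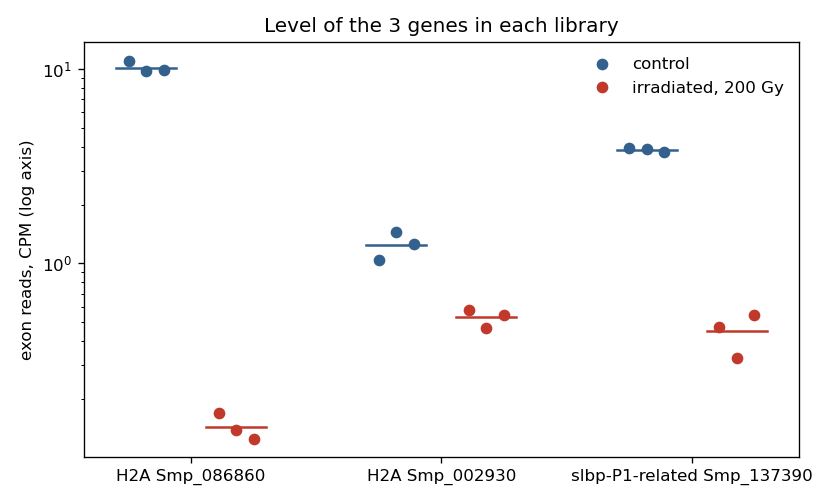
Exon reads as CPM (log axis) of the 3 genes in each of the 3 control (blue) and 3 irradiated (red) libraries, with a line at each group mean. Smp_086860 goes from 9.75 to 11.0 CPM in controls to 0.125 to 0.169 CPM after irradiation, while the groups of Smp_002930 lie much closer together.

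The spread between libraries was set beside counting error. In controls the coefficient of variation of RPKM was 8.86% for Smp_086860, 13.7% for Smp_002930 and 3.19% for Smp_137390, where counting alone would give 6.59%, 19.0% and 10.7%. After irradiation the coefficients were 15.1%, 11.4% and 25.8%, against 52.2%, 27.4% and 29.7% from counting. With 3 libraries a group these coefficients are imprecise, and they do not show how much the pools differ biologically. Leaving out any one library moved the log2 fold change of Smp_086860 between -6.22 and -5.99, that of Smp_137390 between -3.22 and -2.92 and that of Smp_002930 between -1.34 and -1.08. No single library therefore carried the size of a fall.

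Set per length, the order of the 3 genes turned over with irradiation. In controls Smp_086860 had 17.8 ± 1.58 RPKM (SD, n = 3), above slbp-P1-related at 2.59 ± 0.0826 and Smp_002930 at 2.40 ± 0.330. The ranges of the lower pair, 2.54 to 2.68 and 2.06 to 2.72 RPKM, overlapped, so these levels did not differ beyond their spread. After irradiation Smp_002930 was highest at 1.04 ± 0.118 RPKM, followed by slbp-P1-related at 0.306 ± 0.0790 and Smp_086860 at 0.256 ± 0.0387. The ranges of the last 2, 0.219 to 0.375 and 0.225 to 0.300 RPKM, overlapped.

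All reads of the 3 genes mapped to a single place. The unique exon reads equalled the total exon reads in each of the 6 libraries for Smp_086860, Smp_002930 and Smp_137390. Histone copies can resemble one another, but the counted reads of these H2A genes were not shared with another copy. Both H2A genes have 1 exon, of 488 and 441 bases in total, so they have no intronic or exon-exon reads. In RefSeq's annotation (assembly ASM23792v2, used here for the order of genes only) none of the 3 gene models overlapped the 2 nearest models on either side. The 4 neighbours of Smp_086860 had log2 fold changes of -0.10 to 0.05 and those of Smp_002930 -0.66 to 0.15, none of them called (adjusted p of 0.2116 or more, edgeR). Of the neighbours of slbp-P1-related, the 1 that is in the table had no reads.

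The slbp-P1-related gene has 6 exons, so its exon, junction and intronic reads could be set side by side. Whether the intronic reads came from unspliced RNA was not tested. Intronic reads, taken as gene reads minus exon reads, numbered 31, 34 and 32 in the controls and 5, 3 and 6 after irradiation. As CPM these were 1.16, 1.49 and 1.83 in controls and 0.169, 0.139 and 0.251 after irradiation, again with no overlap. Reads across exon-exon junctions fell from 39, 31 and 22 to 6, 1 and 4. Intron-exon reads, which were few, fell from 7, 5 and 4 to 1, 1 and 0. The log2 fold change was -2.72 (SE 0.36) in intronic reads and -3.18 (SE 0.34) in exon-exon reads, beside -3.08 (SE 0.20) in all exon reads. Intronic reads kept 12.9% of the control level, with a counting interval of 6.81% to 22.7%, which contains the 11.7% found for exon reads. In intronic reads 0.252% of 7539 tested genes were called lower, but slbp-P1-related was chosen for its fall, so its place among them is not read as a result.

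The intronic share of the reads of slbp-P1-related had a similar range in both groups. It was 22.8%, 27.6% and 32.7% of gene reads in the controls and 26.3%, 30.0% and 31.6% after irradiation. The irradiated values rest on 10 to 19 gene reads, and the Wilson 95% interval of irradiated B ran from 10.8% to 60.3%. Pooled, the share was 27.2% in controls, with an interval of 22.8% to 32.0%, and 29.2% after irradiation, with an interval of 18.2% to 43.2%. A difference in the share was not detectable at this depth. Over all rows of the table, reads outside exons were 12.8% to 17.1% of gene reads. That figure covers rows with 1 exon or none as well, so it is not a like measure. The share of slbp-P1-related was above that of its library in all 6. The intervals of irradiated A (11.8% to 48.8%) and irradiated B contained the values of their libraries, 13.3% and 14.0%.

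**Figure D2:**
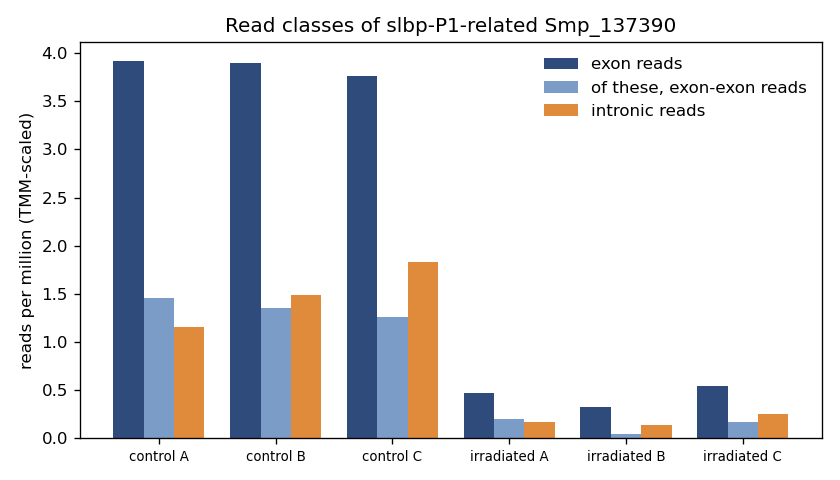
Reads of slbp-P1-related (Smp_137390) as CPM in each library, as all exon reads, the exon-exon reads among them, and intronic reads. All 3 classes are low in the 3 irradiated libraries, with intronic reads at 0.139 to 0.251 CPM against 1.16 to 1.83 in controls.

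The other tested H2A genes lay near their control levels. The table has 13 rows named histone H2A, of which 7 had enough reads to test. Besides Smp_086860 and Smp_002930 these were 5 genes with log2 fold changes of -0.13 to 0.08 and SEs of at most 0.10. None of the 5 was called by edgeR or DESeq2, and none had an unadjusted p under 0.05. Over all tested genes edgeR called 2.49% lower and 0.619% higher, and DESeq2 5.51% and 1.43%. A count of 0 of 5 is near these shares, so nothing is read from it. The most abundant of the 5, Smp_089870, which also has 1 exon, had 551 ± 35.3 RPKM in controls and 594 ± 7.03 after irradiation (SD, n = 3). Every irradiated library of this gene lay slightly above every control. Smp_210630, of 3 exons, had 209 ± 17.0 and 194 ± 11.4 RPKM, and Smp_031720, of 2 exons, 195 ± 12.9 and 188 ± 7.59. Smp_130880, at 12.2 ± 0.146 and 13.0 ± 0.713 RPKM, and Smp_176670, at 6.32 ± 0.260 and 6.06 ± 0.717, had control levels below that of Smp_086860. Of the 6 H2A rows with too few reads to test, 2 had none and each of the others at most 25 in all, too few to show a change.

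The 2 H2A genes that fell were a small part of the summed H2A level in RPKM. In RPKM, Smp_086860 made 1.91%, 1.80% and 1.67% of the sum over the 13 rows in the controls, and 0.0296%, 0.0252% and 0.0223% after irradiation. Smp_002930 made 0.200% to 0.295% in controls and 0.0931% to 0.111% after irradiation. The sum of the other 11 rows was 1007, 903 and 1016 RPKM in controls and 1012, 969 and 1006 after irradiation, and these groups overlapped. The labels name a TruSeq kit and do not say how mRNA was selected, so how well transcripts without a poly(A) tail were caught is not known, and its part in these shares was not tested.

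**Figure D3:**
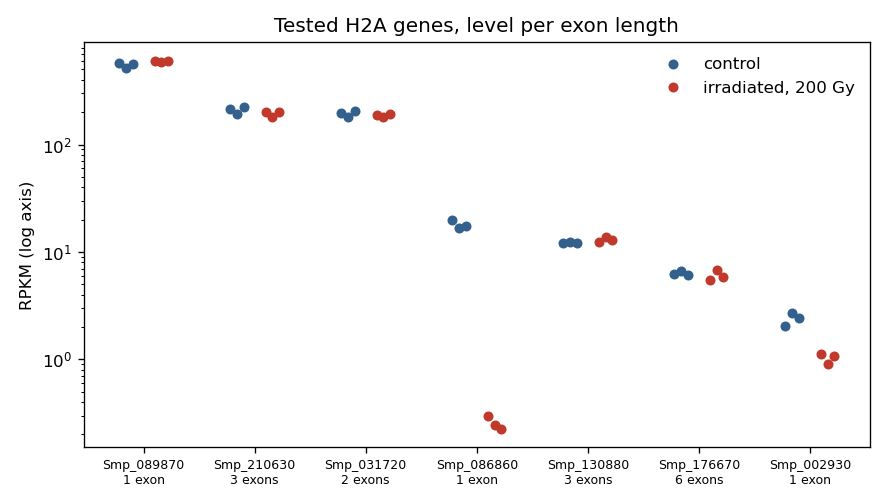
Level of the 7 tested H2A genes in RPKM (log axis), by library, in order of the control mean, with the number of exons under each name. Smp_086860 and Smp_002930 have lower irradiated (red) than control (blue) points, while the blue and red points of each of the other genes lie at about the same height.

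Among the remaining histones a single gene, the centromeric histone, was lower. The list of core, linker and variant histones had 29 rows, of which 17 were tested. Besides the H2A genes Smp_086860 and Smp_002930, 1 of 15 was called lower and none higher, where 2.49% and 0.619% of all tested genes were. This was the gene named centromere protein A (cenp-A, Smp_040020), the histone H3 variant on which the kinetochore is built in animals. Its level was 2.39, 2.93 and 2.11 CPM in the controls and 1.05, 1.16 and 0.920 CPM after irradiation. The groups did not overlap, and its fall of 1.26 on the log2 scale (SE 0.20; edgeR adjusted p = 0.00771) was close in size to that of Smp_002930. The call held when any one library was left out (adjusted p of 0.00775 to 0.0403) and with DESeq2 (adjusted p = 0.00289), which called 5.51% of all genes lower and 1.43% higher.

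No gene for H2B, H4 or a linker histone, and no H3 gene other than cenp-A, passed the test. The median log2 fold change of the 15 was -0.04, against 0.00 over all tested genes. The 14 that were not called lay between -0.79 and 0.27. The abundant H3 gene Smp_082240 had 804 ± 32.2 CPM in controls and 796 ± 50.5 after irradiation, the H4 gene Smp_053390 342 ± 19.0 and 332 ± 8.32, and the H2B gene Smp_036220 227 ± 8.61 and 238 ± 6.95. The linker gene Smp_003770, named histone h1/h5, had 528 ± 5.45 and 506 ± 18.5 CPM. A scarce linker gene, Smp_162370, had 0.705 ± 0.191 and 0.380 ± 0.176 CPM, or -0.79 in log2 (SE 0.39; edgeR adjusted p = 0.2753) with overlapping groups. The other 9 tested genes lay between -0.13 and 0.27 (log2), the highest being the H3 gene Smp_089860. Its irradiated libraries all lay above its controls. In the H4 gene Smp_053300 only 28.2% of reads were unique, so its level is uncertain, while 22 of the 24 histone rows with reads had at least 99% unique reads. Of 9 tested histones with 1 exon, Smp_086860 and Smp_002930, which were chosen for their fall, were called lower. The other 7 were not called, which is near the shares of 2.49% lower and 0.619% higher over all tested genes. Nothing is therefore read from this count. The 12 untested histone rows had at most 53 reads, and 5 of them had none.

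**Figure D4:**
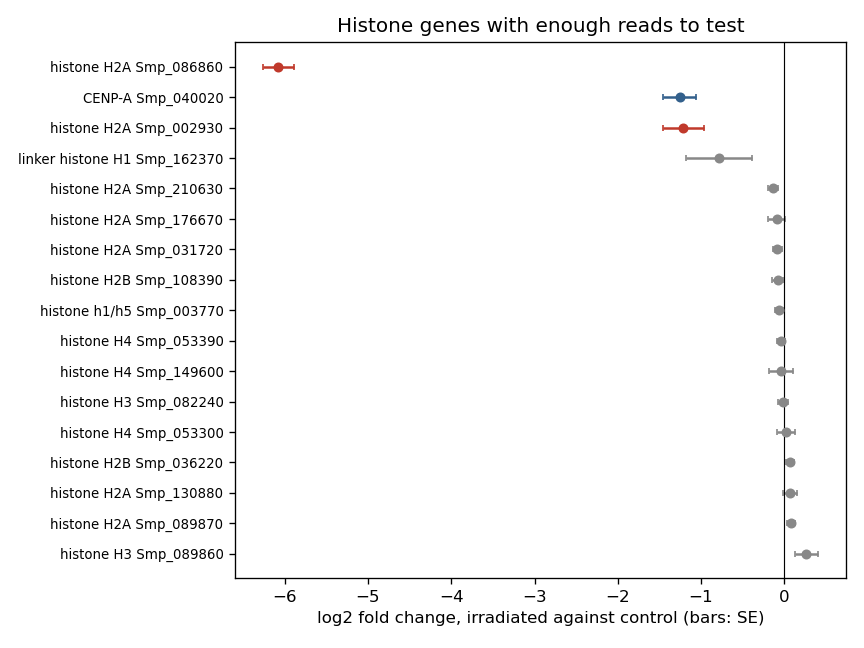
Log2 fold change with its SE for the 17 tested histone genes, the H2A genes that were chosen for their fall in red and the other gene called lower in blue. Smp_086860 stands at -6.08, Smp_040020 (cenp-A) at -1.26 and Smp_002930 at -1.21, and the genes in grey were not called.

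No other tested gene in a list drawn by the names of mRNA processing and decay factors was called beside slbp-P1-related. Most of these names are of factors for mRNAs in general, and their part in histone mRNA was not tested. The list held 22 further rows, among them factors that cut the 3′ end (symplekin and the cleavage and polyadenylation specificity factors), Sm and Lsm proteins, cap binding proteins and the exonuclease eri1. Of 21 tested, none was called in either direction by edgeR or DESeq2, and 4 had an unadjusted p under 0.05. Over all tested genes edgeR called 2.49% lower and 0.619% higher, so a list of this size would have few calls at that share, and 0 of 21 is near it. The median log2 fold change was 0.02, and the range was -0.24 to 0.14, beside -3.08 for slbp-P1-related. The most abundant, a cap binding protein (Smp_031360), had 205 ± 0.673 CPM in controls and 201 ± 2.39 after irradiation, and eri1 (Smp_029850), an exonuclease that trims histone mRNA ends in mammals, had 150 ± 9.40 and 160 ± 5.14. Symplekin (Smp_163560), a scaffold of 3′ end cutting, was the lowest at -0.24 (SE 0.09, adjusted p = 0.1646, edgeR), from 72.8 ± 8.06 to 61.7 ± 5.90 CPM. Without irradiated B, symplekin and a specificity factor (Smp_148480) were called lower (adjusted p = 0.0473 and 0.0484, edgeR).

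A list of histone chaperones, which carry histones to DNA, and of chromatin assembly genes was drawn by name. Some rows are named only retinoblastoma binding protein, and their part in this was not tested. Of 10 genes tested, none passed in edgeR or DESeq2, which is near the edgeR shares of 2.49% lower and 0.619% higher over all tested genes. An unadjusted p under 0.05 was found for 3, with a median log2 fold change of -0.02 and a range of -0.17 to 0.13. The most abundant were a nucleosome assembly protein (Smp_023530), at 226 ± 8.99 CPM in controls and 247 ± 3.91 after irradiation, and rbbp4 (Smp_212260), at 208 ± 13.0 and 193 ± 6.57. Without control A, 1 was called lower, a retinoblastoma binding protein (Smp_039640, adjusted p = 0.0471, edgeR).

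Of 23 tested genes that supply nucleotides or belong to the copying machinery, 5 were called lower and none higher, where 2.49% and 0.619% of all tested genes were, with a median log2 fold change of -0.12 beside 0.00 over all tested genes. The catalytic subunit of DNA polymerase alpha (Smp_178260), which starts new DNA strands, went from 6.22 ± 0.149 to 1.40 ± 0.238 CPM, or -2.16 in log2 (SE 0.14; edgeR adjusted p = 2.45e-05). Both subunits of ribonucleoside-diphosphate reductase, which makes the building blocks of DNA, were lower by far less than Smp_086860 or slbp-P1-related. The alpha subunit (Smp_009030) went from 73.3 ± 1.13 to 53.0 ± 2.25 CPM and the small chain (Smp_055890), named after its values were seen, from 79.4 ± 2.57 to 63.9 ± 5.51. The sliding clamp gene for proliferating cell nuclear antigen (Smp_046500) went from 69.2 ± 1.46 to 50.7 ± 2.30 CPM. A row named catalytic subunit of DNA polymerase epsilon (Smp_210940) went from 74.0 ± 6.93 to 58.5 ± 2.60. Other rows of that name, Smp_210950 and Smp_209030, were not called, with log2 fold changes of -0.05 (SE 0.05) and 0.05 (SE 0.05). The call of the small chain was lost without control A, B or C or irradiated C, and that of Smp_210940 without control B or C or irradiated A or C (adjusted p up to 0.1657 and 0.1530, edgeR). The count was 3 without control B, without control C or without irradiated C.

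**Figure D5:**
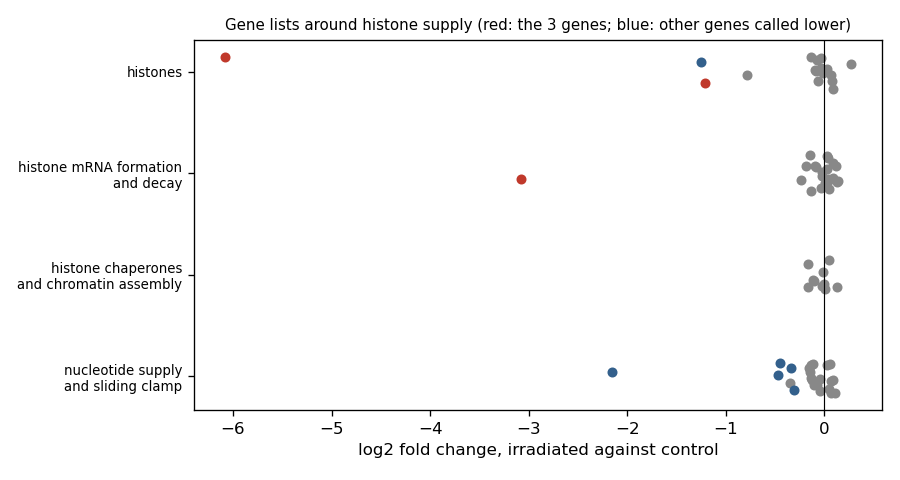
Log2 fold change of each tested gene in 4 lists around histone supply, with the 3 chosen genes in red, other genes called lower in blue and the rest in grey (vertical scatter within a list has no meaning). The genes of the list named histone mRNA formation and decay, other than slbp-P1-related, lie between -0.24 and 0.14.

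The 3 genes fell by different amounts, so each had other genes close to it by size of fall. They were chosen for that fall, so the distances only describe it. Likeness was taken as the Euclidean distance between profiles of log2 CPM over the 6 libraries, each centred on its control mean, which reflects the size of the fall more than anything else. Closest to Smp_086860 were a rac GTPase activating protein (Smp_021590, distance 1.24), the cytokinesis regulator prc1 (Smp_016870, 1.95), the helicase subunit MCM2 (Smp_079560, 1.995), cyclin B (Smp_082490, 2.24) and a protein named for uveal autoantigen (Smp_129710, 2.28), beside a median distance of 9.52 over all tested genes. The closest of these had a log2 fold change of -5.32, beside -6.08 for Smp_086860. Such a median grows with the fall of the gene itself, so it gives scale only.

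Closest to slbp-P1-related were MCM5 (Smp_143490, distance 0.469), a gene named MCM1 (Smp_151560, 0.631), Smp_129410, which has no product name (0.718), the argonaute gene named eukaryotic translation initiation factor 2c (Smp_179320, 0.719) and a gene named paramyosin (Smp_169970, 0.735), beside a median of 5.08. MCM5, a helicase subunit that opens DNA for copying, kept 2.37 of 17.2 CPM. The genes closest to Smp_002930 were those of p53 (Smp_139530, distance 0.292), a tubulin alpha chain (Smp_027920, 0.318), MCM7 (Smp_032500, 0.381), an origin recognition complex subunit (Smp_127070, 0.396) and DNA polymerase theta (Smp_155500, 0.397), beside a median of 1.99. The H2A genes Smp_086860 and Smp_002930 were 7.60 apart, and slbp-P1-related was 4.50 from the former and 3.14 from the latter.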

How the data were processed

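The deposited table holds, per the file headers, counts of exon, gene, exon-exon and intron-exon reads (total and unique) for each gene in each library, an exon length, and RPKM values by the authors. The authors' signed fold change was used as a score of their own comparison, and their deposited p-values were not used. RPKM as deposited equalled the total exon reads scaled by exon length and by the gene reads of the library (largest relative difference 3.77e-08). The sources used here do not give the aligner, counting program, genome build or annotation, nor whether the kit marks strand.

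Rows without exons (2535 of 13305, 0.654% to 1.40% of gene reads) were left out. Total exon reads were filtered with filterByExpr, scaled with TMM and tested for irradiated against control with edgeR 4.0.16 (R 4.3.3), adjusting by Benjamini-Hochberg over 8885 genes. The code was tested on simulated data. SE is the unshrunken log2 fold change over the square root of F. With few reads it can be smaller than counting error, as it is for the 3 members, whose counting intervals are the safer guide. Intronic reads are gene minus exon reads. Pooled ratios have exact 95% binomial intervals, and all intervals cover counting error only. Alternatives were RLE scaling, no filter, 5 CPM in 3 libraries, DESeq2 1.42.0, unique exon and exon-exon reads, limma 3.58.1 on log2(RPKM + 0.5) or log2(RPKM + 0.1), a replicate block and leaving out each library. Fits on gene reads with introns and on intronic reads were added after seeing the data. Sampling noise did not account for the difference between any 2 libraries (chi-square per degree of freedom of 7.39 or more).

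The members and lists were chosen with earlier results of these data known. Lists came from patterns on product names. Named genes were the 3 members, all tested histones, up to 4 called genes of each other list with the largest change or its 2 most abundant where fewer than 2 were called, and the 5 genes nearest to each member. Of the marker lists, summed levels, counts and called genes are given. Outside this rule, boule-related, spo11, mre11 as 1 example, symplekin, Smp_148480, Smp_039640 and the small chain Smp_055890 were named after their values were seen. The same holds for the polymerase epsilon rows Smp_210950 and Smp_209030. Of rows with exons, 9647 matched a RefSeq locus tag. Sequences were not used here.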

Additional observations from a re-analysis of the deposited data

How the results depend on the processing

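The 3 genes were lower in every fit that tested them, and their log2 fold changes moved by more than the spread between libraries only on RPKM with a pseudocount: Smp_086860 to -4.60 and -5.65, with 0.5 and 0.1 added, and Smp_137390 and Smp_002930 to -1.94 and -0.92, with 0.5 added, which by construction shrinks low levels. Smp_002930 and Smp_137390 could not be fitted at 5 CPM in 3 libraries, nor the H2A genes in exon-exon or intronic reads. The number of genes called lower was 77 at 5 CPM, 490 with DESeq2, 140 and 139 on RPKM with 0.5 and 0.1 added, and 119 to 723 with a library left out. The number called higher was 26 at 5 CPM, 127 with DESeq2 and 16 to 129 with a library left out. The 1 other histone, cenp-A, gave 0 at 5 CPM and in exon-exon reads, where it was not tested. Other genes of the histone mRNA list called lower were 0 to 2 and chaperones 0 to 1 with a library left out. Genes of nucleotide supply called lower were 3 at 5 CPM, in exon-exon reads and on RPKM with 0.5 or 0.1 added, and 3 to 5 with a library left out. Where no construction is named, the cause was not tested.

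Same-letter libraries did not deviate together throughout (correlations of 0.04, 0.18 and -0.10 for A, B and C), so the letters are not taken to pair the samples. With the replicate block, 851 genes were called lower and 277 higher, beside 221 and 55 without it. Whether the letters pair the samples is therefore not settled by these values. Among the genes called with the block, 2 other genes of the histone mRNA list (symplekin and a cleavage stimulation factor) and 1 chaperone (NASP) were lower. The log2 fold changes in this fit were -6.08, -1.20 and -3.09 for Smp_086860, Smp_002930 and Smp_137390. Depth limits the folds most in Smp_086860, with 3 to 5 reads in each irradiated library.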
